A study of Mus musculus with 36 samples.

Results

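The octanal and cis-3-hexenol mixture was examined for non-additivity, that is, for genes whose response to the mixture was not the sum of the responses to its components. All 12 libraries of the octanal-hexenol set were used, out of 36 in the series, with 3 libraries in each of 4 groups. Every gene that passed the filter on low counts was included, which gave 19568 genes, of which 859 were olfactory receptor genes. No gene was left out for its response. The labels give the 3 libraries of a group as biological replicates and the set as the batch, so p-values measure the spread between these mice. Each library came from the olfactory epithelium of a wild-type C57BL/6J male of 8 weeks, habituated to an odorless chamber for 4 h before an exposure of 90 min. Mixture mice received 10 µL of octanal and cis-3-hexenol at equal parts on filter paper. Octanal mice and cis-3-hexenol mice received 10 µL of the undiluted odorant, and no-odor mice received empty paper. At the same total volume, the mixture paper therefore carried less of each odorant than the single-odorant papers.

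RNA was recovered from ribosomes by immunoprecipitation with an antibody to phosphorylated ribosomal protein S6 (pS6) and sequenced. A mature olfactory sensory neuron expresses a single receptor gene, and odorant binding raises cyclic AMP through the G protein Golf and adenylyl cyclase 3, which opens a cation channel. Firing is followed by phosphorylation of S6, so RNA of activated neurons, and with it the RNA of the receptors they express, is enriched in the precipitate. Octanal is a straight-chain aliphatic aldehyde and cis-3-hexenol an unsaturated alcohol of cut leaves. Odorants of a mixture can meet at a receptor that both activate, or 1 can block the receptor that the other activates. The readout is bulk RNA: more neurons bearing a receptor in the precipitate and more receptor RNA per neuron cannot be told apart.

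Library totals ran from 21.6 to 24.5 M counts after the mixture, 18.6 to 21.5 M after octanal, 17.0 to 21.2 M after cis-3-hexenol and 16.04 to 19.2 M without odor. Markers of mature sensory neurons (Omp, Adcy3, Cnga2 and 4 others) summed to 20070 to 23806 counts per 1 M library counts (CPM) after the mixture, 18115 to 26228 after octanal, 10465 to 14921 after cis-3-hexenol and 7251 to 9603 without odor. All 7 were detected, as the tissue label implies. The 10 red blood cell markers summed to 9118 to 20626 CPM after the mixture, 7467 to 23221 after octanal, 19581 to 28181 after cis-3-hexenol and 78214 to 92764 without odor. The 13 mitochondrially encoded genes summed to 1283 to 4285 CPM after the mixture, 652 to 1218 after octanal, 7314 to 20019 after cis-3-hexenol and 5653 to 5991 without odor. These levels moved with the groups, and their part in the interactions was not tested; the receptor share of counts is also given with them left out of the total.

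The main measure was the interaction, the log2 change of the mixture minus the log2 changes of octanal and of cis-3-hexenol, each against no odor. It is 0 where the fold changes multiply, negative where the mixture lies below the sum of the log2 changes, and positive where it lies above. Each component alone was given at a higher dose than in the mixture. Lower dose and mixing therefore cannot be told apart in any departure from additivity. Receptor RNA lay below additivity where it departed from it: 7 receptor genes were called below 0 and 0 above (edgeR quasi-likelihood test, Benjamini-Hochberg adjusted p under 0.05 over all genes). The 7 were 0.815% of the receptor genes tested. Over all 19568 genes 9 were called below, which is 0.046%, and 8 above, which is 0.0409%. At an unadjusted p under 0.05, 96 receptor genes were below and 3 above, where 5.57% and 4.12% of all genes were, and DESeq2 called 34 below and 0 above. The median interaction was -0.25 over the receptor genes, of which 63.6% were below 0, and -0.04 over all genes tested. With libraries scaled to the median receptor gene, these medians were -0.03 and 0.19, the receptor calls were 8 below and 0 above, and the calls over all genes were 12 below and 17 above. The receptor count was 24 without octanal replicate 2, 18 without octanal replicate 3, and 4 each without no-odor replicate 1 or 3, octanal replicate 1 or mixture replicate 1 or 2.

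In the 7 called receptors both components and the mixture were called higher than no odor, and the mixture differed from the larger component by -0.49 to 0.43 on the log2 scale, a difference called in none of them. The ligands of these receptors were not taken from any source used here. Olfr124 (ENSMUSG00000044985, chromosome 17) had 113, 89.2 and 134 CPM after the mixture, 96.7, 94.97 and 151 after octanal, 120.3, 94.4 and 81.5 after cis-3-hexenol, and 12.7, 14.6 and 15.0 without odor. The mixture libraries lay within the range of the octanal libraries but for the lowest, and every odor library lay above every no-odor library. Its log2 change against no odor was 2.99 ± 0.22 (SE) after the mixture, 3.02 ± 0.22 after octanal and 2.81 ± 0.22 after cis-3-hexenol, and the interaction was -2.84 ± 0.29 (edgeR adjusted p = 0.000379). Additivity of the log2 changes would have placed the mixture at 800.5 CPM, 7.14 times the measured mean of 112 ± 22.3 CPM (SD, n = 3).

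Olfr398 (ENSMUSG00000049041, chromosome 11) was likewise high in all odor groups. Its level was 37.4, 44.6 and 48.7 CPM after the mixture, 51.5, 39.1 and 35.3 after octanal, 42.2, 36.4 and 29.5 after cis-3-hexenol, and 5.06, 6.02 and 3.41 without odor. The mixture range overlapped that of each component, and every library of an odor-exposed mouse lay above every no-odor library. The interaction was -2.84 ± 0.29 (edgeR adjusted p = 0.000379), with log2 changes of 3.17 for the mixture, 3.11 for octanal and 2.89 for cis-3-hexenol.

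Olfr476 and Olfr1243 completed the receptors whose call held in 18 of 18 alternatives, as did those of Olfr124 and Olfr398. Olfr476 (chromosome 7) had 15.6, 11.7 and 14.6 CPM after the mixture, 16.5, 18.8 and 14.2 after octanal, 8.44, 9.45 and 6.92 after cis-3-hexenol, and 0.694, 1.48 and 0.59 without odor. The mixture exceeded every cis-3-hexenol library and overlapped octanal. Its interaction was -3.40 ± 0.37 (edgeR adjusted p = 0.000622). Olfr476 has a near-identical copy in Olfr477, between which reads may have been divided. Olfr1243 (chromosome 2) had 58.0, 56.8 and 85.9 CPM after the mixture, 94.0, 55.7 and 37.5 after octanal, 56.9, 33.9 and 32.4 after cis-3-hexenol, and 1.49, 3.602 and 3.41 without odor. Its interaction of -3.78 ± 0.49 was the most negative of the 7 (edgeR adjusted p = 0.00318), and the log2 sum would have placed the mixture at 917 CPM, 13.7 times the measured mean.

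The other 3 called receptors rested more on single libraries. Olfr1463 (chromosome 19) had 126, 112 and 151 CPM after the mixture, 242, 171 and 132 after octanal, 60.7, 23.1 and 31.6 after cis-3-hexenol, and 5.55, 10.3 and 8.99 without odor, so the mixture overlapped octanal and lay above every cis-3-hexenol library. It averaged 130 ± 19.8 CPM after the mixture, 182 ± 55.7 after octanal, 38.5 ± 19.7 after cis-3-hexenol and 8.27 ± 2.44 without odor (SD, n = 3 each). Its interaction was -2.71 ± 0.44 (edgeR adjusted p = 0.0244), and 13 of 18 alternatives kept the call. The adjusted p of Olfr1463 was 0.0601 without no-odor replicate 1, 0.0751 without no-odor replicate 3, 0.0725 without octanal replicate 1, 0.0893 without mixture replicate 1 and 0.113 without mixture replicate 2.

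Olfr1242, next to Olfr1243 on chromosome 2 with no other receptor gene between them, had 68.1, 59.4 and 78.9 CPM after the mixture, 73.7, 54.9 and 23.9 after octanal, 57.4, 38.4 and 29.2 after cis-3-hexenol, and 2.63, 5.61 and 5.18 without odor. The interaction was -2.80 ± 0.49 (edgeR adjusted p = 0.0438). Olfr707 (chromosome 7) had 13.8, 12.4 and 9.49 CPM after the mixture, 19.5, 14.6 and 10.4 after octanal, 5.61, 3.78 and 2.93 after cis-3-hexenol, and 0.694, 0.768 and 1.31 without odor, where the mixture lay above every cis-3-hexenol library and overlapped octanal. It averaged 11.9 ± 2.19 CPM after the mixture, 14.8 ± 4.52 after octanal, 4.11 ± 1.37 after cis-3-hexenol and 0.925 ± 0.338 without odor (SD, n = 3 each), with an interaction of -2.49 ± 0.44 (edgeR adjusted p = 0.045). Olfr707 has a near-identical copy in the pseudogene Olfr1532-ps1. For both genes the call held in 9 of 18 alternatives. It was lost without any 1 of the libraries except octanal replicates 2 and 3 and cis-3-hexenol replicate 3, with an adjusted p of at most 0.155 for Olfr1242 and 0.147 for Olfr707.

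**Figure D1:**
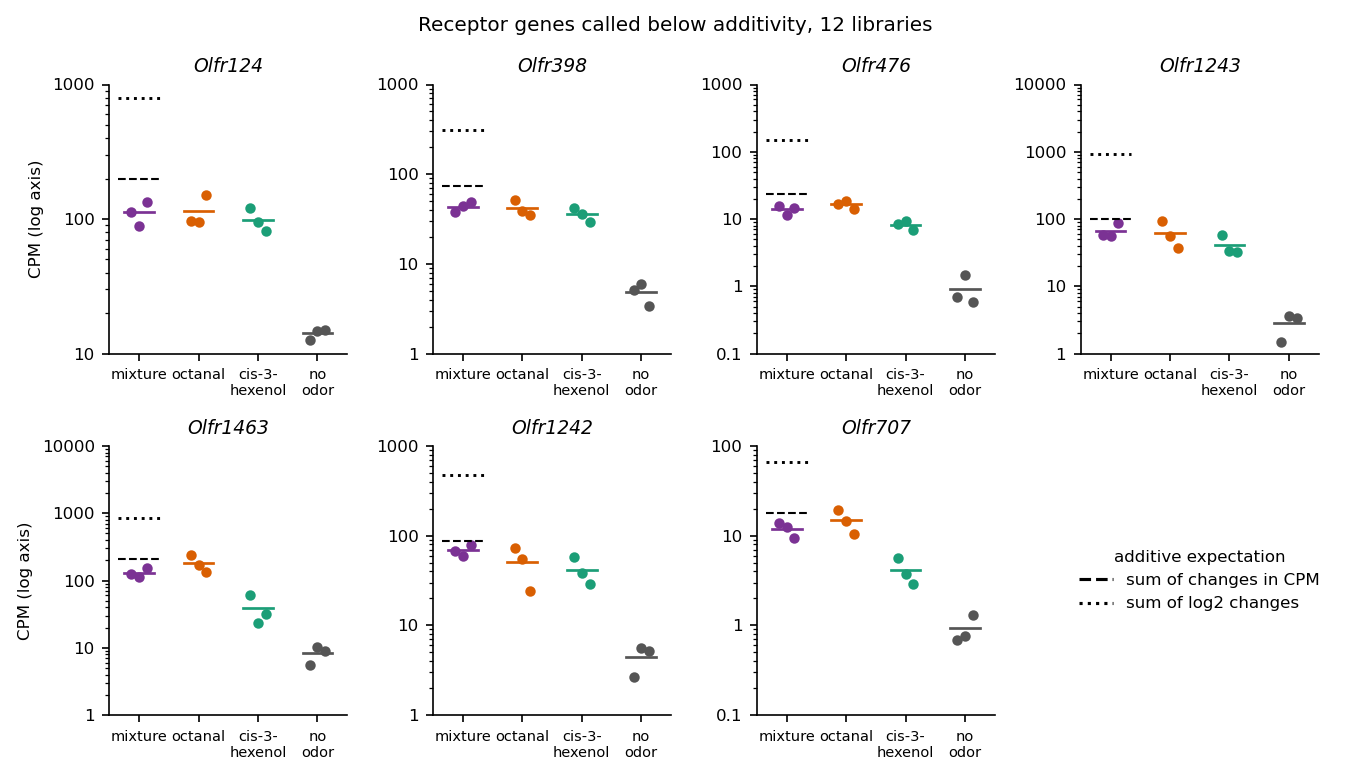
CPM on a log axis in the 12 libraries for the 7 receptor genes called below additivity, with points for libraries and lines for group means (n = 3). The dashed line marks the sum of the component increases in CPM and the dotted line the sum of the log2 changes, both drawn over the mixture. All mixture points lie below the dotted line, which for Olfr124 is at 800.5 CPM.

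On the CPM scale, where the increases over no odor are summed rather than multiplied, the same 7 genes were nearer to additivity. The mixture reached 0.564 of the linear sum for Olfr124, 0.585 for Olfr476, 0.595 for Olfr398, 0.612 for Olfr1463, 0.660 for Olfr707, 0.665 for Olfr1243 and 0.781 for Olfr1242. For Olfr124 the mixture stood at 112 ± 22.3 CPM and the linear sum at 199 ± 37.5 CPM (SD, n = 3), and for Olfr1242 the mixture stood at 68.8 ± 9.80 CPM and the linear sum at 88.1 ± 29.0 CPM. Departure from the linear sum was thus larger than the combined spread for Olfr124 and smaller than it for Olfr1242. No test was made on this scale.

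Upstream sequence is shown for 4 of the 7, those with the smallest p (Olfr124 and Olfr398) and the neighbouring pair that moved together (Olfr1242 and Olfr1243). The windows of 300 bases run from 250 before to 50 after the RefSeq gene start (build GRCm38.p6, gene strand), at chr17:37804819-37805118 (+) for Olfr124, chr11:73984557-73984856 (-) for Olfr398, chr2:89494297-89494596 (-) for Olfr1242 and chr2:89528359-89528658 (-) for Olfr1243. A receptor's RefSeq start can be its coding start, and the windows were not checked against mapped transcription starts. Capitals mark TAATTA, a homeodomain core, in Olfr124, CCCNNGGG, the core of an Olf1/EBF-type motif, in Olfr398, and the longest run shared by Olfr1242 and Olfr1243.
Olfr124: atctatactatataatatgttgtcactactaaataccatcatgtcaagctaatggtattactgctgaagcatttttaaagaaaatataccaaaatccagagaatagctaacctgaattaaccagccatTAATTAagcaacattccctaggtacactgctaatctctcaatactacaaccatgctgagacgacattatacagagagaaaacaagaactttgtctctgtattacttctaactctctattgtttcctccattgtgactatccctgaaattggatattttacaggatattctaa
Olfr398: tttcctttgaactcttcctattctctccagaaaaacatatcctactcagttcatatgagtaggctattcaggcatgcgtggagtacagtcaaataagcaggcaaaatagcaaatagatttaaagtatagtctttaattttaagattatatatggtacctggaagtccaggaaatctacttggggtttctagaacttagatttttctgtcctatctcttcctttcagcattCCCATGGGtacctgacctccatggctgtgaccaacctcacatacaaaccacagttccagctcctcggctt
Olfr1242: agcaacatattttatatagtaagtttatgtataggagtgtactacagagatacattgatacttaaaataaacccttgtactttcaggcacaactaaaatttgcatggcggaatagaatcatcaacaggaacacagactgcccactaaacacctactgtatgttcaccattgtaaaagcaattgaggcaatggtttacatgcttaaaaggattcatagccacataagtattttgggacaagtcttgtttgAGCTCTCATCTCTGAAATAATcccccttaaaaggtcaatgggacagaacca
Olfr1243: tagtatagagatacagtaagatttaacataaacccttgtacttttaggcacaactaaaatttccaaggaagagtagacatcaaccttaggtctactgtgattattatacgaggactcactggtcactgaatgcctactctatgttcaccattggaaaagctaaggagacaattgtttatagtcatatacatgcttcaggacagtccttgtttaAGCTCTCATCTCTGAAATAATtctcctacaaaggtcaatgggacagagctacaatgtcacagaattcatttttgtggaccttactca
Both motifs read the same on either strand, and share no overlap in these windows since each was found in a different gene. TAATTA stood in 1 of the 7 windows, in 18.2% of 732 windows of receptor genes tested and in 5.29% of all 32851 windows of the table. CCCNNGGG stood in 1 of the 7, in 3.14% of the receptor windows and in 13.7% of all windows. The shared run of Olfr1242 and Olfr1243 was 21 bases long, against at most 11 in the other 20 pairs of called receptors. Those other pairs are not neighbours, and no uncalled neighbour was compared, so the run is not tied to the response. A match describes these letters and is not shown to be a binding site.

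The other genes beside the called ones given here were not called. Olfr1240, also in the Olfr1242 to Olfr1243 series, had 125, 103 and 124 CPM after the mixture, 41.3, 19.0 and 12.1 after octanal, 111, 105 and 80.0 after cis-3-hexenol, and 3.32, 5.25 and 3.94 without odor. The mixture and cis-3-hexenol libraries overlapped and lay above every octanal library. Its interaction of -2.29 ± 0.45 missed the threshold (edgeR adjusted p = 0.0756). On the CPM scale its mixture mean reached 0.991 of the linear sum, so there the increases nearly added. Olfr1241, which lies between Olfr1240 and Olfr1242, had an interaction of -0.12 and log2 changes of 0.39 after the mixture, 0.22 after octanal and 0.29 after cis-3-hexenol. Next to Olfr124, Olfr123 had an interaction of -0.55, with log2 changes of 3.58 after the mixture, 3.61 after octanal and 0.52 after cis-3-hexenol.

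Receptor genes were then read by which component raised them. Of the 859, 39 were called higher with both components, 145 with octanal only, 29 with cis-3-hexenol only and 646 with neither, against 17.9% of all genes called higher after octanal and 2.58% after cis-3-hexenol. These classes rest on component changes that enter the interaction with a minus sign, so their interactions are a description and were not tested as groups. The same no-odor libraries enter the mixture calls given for each class below. The selection therefore favoured shares above that of all genes, or below it for the class higher with neither, and these too are a description. All 7 called receptors were among the 39. In those 39 the median log2 change was 3.04 after the mixture, 3.02 after octanal and 2.41 after cis-3-hexenol, and the interaction had a median of -2.09 and ran from -3.78 to -0.91. The mixture lay a median of 0.07 below the larger single response on the log2 scale. Their median ratio to the linear sum was 0.691, and 38 of 39 were below 1; Olfr819 was the exception, at 1.0999.

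**Figure D2:**
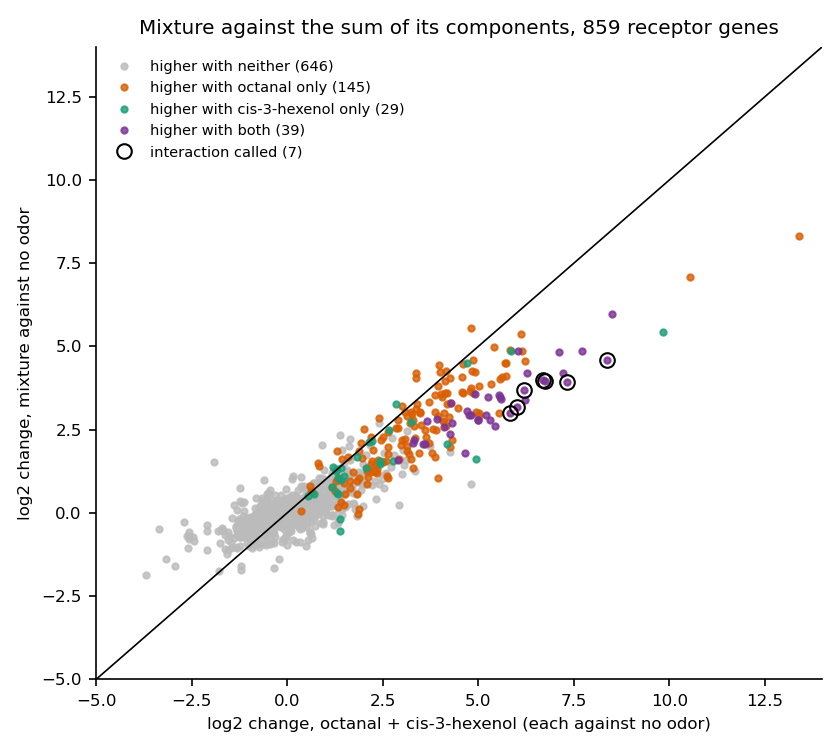
Log2 change of the mixture against no odor (y axis) and the sum of the log2 changes of octanal and cis-3-hexenol (x axis) for 859 receptor genes, coloured by the component that raised them. The line marks additivity and circles mark the 7 called genes; both axes share the no-odor libraries. The 39 genes higher with both components all lie under the line, by a median of 2.09.

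Among the 145 genes higher with octanal only, the mixture median was close to that of octanal: the median log2 change was 2.50 after the mixture, 2.72 after octanal and 0.48 after cis-3-hexenol, and 126 of them were called higher after the mixture, where 17.7% of all genes were. The octanal and mixture calls share the no-odor libraries, so the selection favoured this share. The median interaction was -0.85. Of this class 0 were called by edgeR in the interaction, with 40 below 0 at an unadjusted p under 0.05. Olfr332 had 159, 165 and 148 CPM after the mixture, 169, 129 and 178 after octanal, 6.93, 8.96 and 7.29 after cis-3-hexenol, and 6.20, 8.44 and 6.69 without odor. The mixture fell inside the octanal range and cis-3-hexenol overlapped no odor, with an interaction of -0.14 ± 0.23 (edgeR adjusted p = 0.894), or 0.10 with libraries scaled to the median receptor gene. Olfr1368 at -0.57 ± 0.25 and Olfr695 at -0.68 ± 0.30 lay further below 0 (unadjusted p = 0.0337 and 0.0401 in the edgeR fit), and Olfr370 was at 0.19 ± 0.24 and Olfr1380 at 0.24 ± 0.36, the value of the last being -0.21 without no-odor replicate 3. Olfr2, an octanal receptor long studied as the mouse counterpart of rat I7, had 25.7, 25.8 and 21.3 CPM after the mixture, 18.9, 42.6 and 28.4 after octanal, 1.98, 1.89 and 3.41 after cis-3-hexenol, and 6.99, 2.78 and 2.76 without odor. The mixture lay inside the octanal range, and the interaction was 0.51 ± 0.49 (edgeR adjusted p = 0.793), with -0.10 without no-odor replicate 1.

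Olfr716 and Olfr287, higher after octanal and by a small amount after cis-3-hexenol, had interactions of -1.16 ± 0.32 and -1.10 ± 0.26 that missed the threshold (edgeR adjusted p = 0.20 and 0.139). Olfr716 averaged 60.4 CPM after the mixture, 69.8 after octanal, 3.97 after cis-3-hexenol and 2.06 without odor.

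Among the 29 genes higher with cis-3-hexenol only, the mixture median lay below that of cis-3-hexenol: the median log2 change was 1.39 after the mixture, 0.08 after octanal and 1.98 after cis-3-hexenol, and 19 were called higher after the mixture, against 17.7% of all genes. The mixture lay a median of 0.55 below the larger single response, against 0.28 below it in the genes higher with octanal only; that difference was not tested. The cis-3-hexenol and mixture calls of this class likewise share the no-odor libraries. The median interaction was -0.38. Olfr1215 had 17.9, 16.01 and 11.3 CPM after the mixture, 0.751, 0.768 and 0.811 after octanal, 20.3, 12.4 and 10.7 after cis-3-hexenol, and 0.496, 0.827 and 0.656 without odor. The mixture and cis-3-hexenol libraries overlapped, as did octanal and no odor, and the interaction was -0.19 ± 0.45, or 0.03 with libraries scaled to the median receptor gene and 0.13 without cis-3-hexenol replicate 1. Olfr1226 averaged 77.3 CPM after the mixture, 12.9 after octanal, 95.2 after cis-3-hexenol and 13.9 without odor, with an interaction of -0.19 ± 0.32, which was also above 0 under these alternatives (0.05 and 0.16). Olfr342, higher with both components, averaged 11.998 CPM after the mixture, 2.87 after octanal, 15.5 after cis-3-hexenol and 1.08 without odor, with an interaction of -1.78 ± 0.47 (edgeR adjusted p = 0.186).

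The 646 genes higher with neither component had a median interaction of -0.07, and 14 of them were called higher after the mixture, against 17.7% of all genes. Over all 859 receptor genes the most negative interaction was that of Olfr559, a gene higher with octanal only and with few counts: at -5.09 and not called (edgeR adjusted p = 0.559), it averaged 2.02 CPM after the mixture, 1.24 after octanal, 0.338 after cis-3-hexenol and 0.00 without odor, so its value depends on the prior count of the fit and is no bound. The most positive was that of Olfr1506, higher with neither, at 3.44, with 5.61 CPM after the mixture, 0.167 after octanal, 5.46 after cis-3-hexenol and 2.01 without odor, also not called (edgeR adjusted p = 0.581). Class I receptors, 97 genes of the family that resembles those of fish, and class II receptors, 745 genes, both had a median interaction of -0.26. The 7 calls were all in class II.

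Receptor lists taken from the other 2 sets of the series do not share libraries with this interaction. Receptors called higher with decanal, 64 of 66 tested here, had a median interaction of -0.55 with 0 called by edgeR (15 below 0 at an unadjusted p under 0.05). Those called higher with acetophenone, 103 of 110 tested, had a median of -0.46 with 2 called below and 18 below 0 at an unadjusted p under 0.05. Those called higher with the floral fragrance, 77 of 82 tested, had a median of -0.73 with 2 called below and 26 at an unadjusted p under 0.05. Those called higher with the mint fragrance, 101 of 108 tested, had a median of -0.50 with 4 called below and 24 at an unadjusted p under 0.05. Of all receptor genes 0.815%, and of all genes 0.046%, were called below. At an unadjusted p under 0.05 in the edgeR fit, 11.2% of all receptor genes and 5.57% of all genes were below 0. All 4 medians lay under that of all receptor genes, -0.25.

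Whether the mixture exceeded, or fell short of, both components was asked by testing it against each. No gene was called above both components and none below both, among receptors or among all 19568 genes (edgeR, both contrasts at an adjusted p under 0.05; DESeq2 gave 0 as well). At an unadjusted p under 0.05 in both contrasts, 3 receptor genes were above both, 5 below both and 26 between, against 29, 92 and 112 of all 19568 genes. By sign alone, 174 of the 859 receptor genes (20.3%) lay above both components, 534 (62.2%) between and 151 (17.6%) below both. The shares over all genes were 21.6%, 51.3% and 27.1%. Picking the larger of the components favours a value below it, so the signs are a description.

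**Figure D3:**
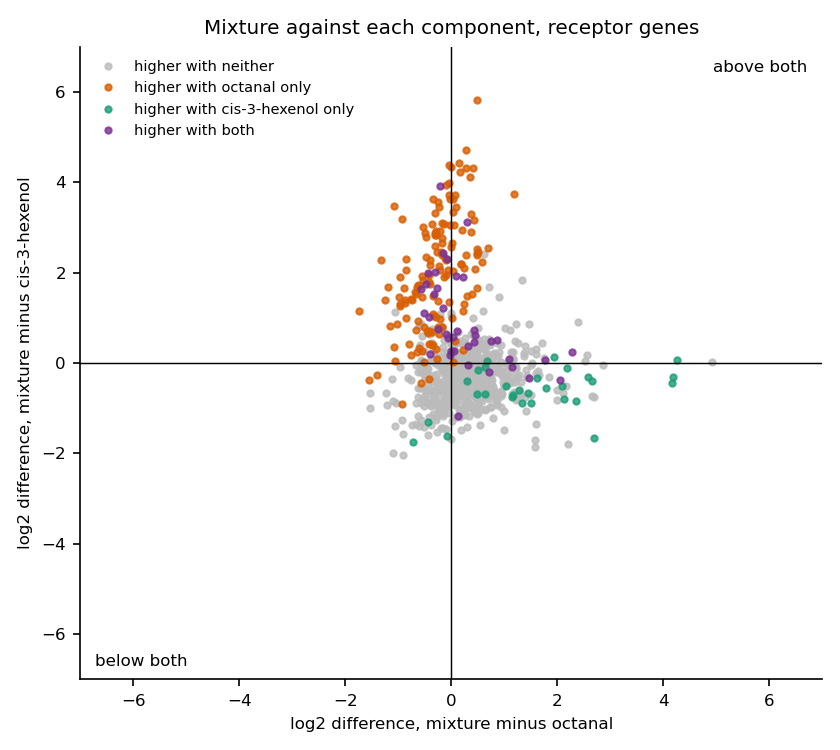
Log2 difference of the mixture from octanal (x axis) and from cis-3-hexenol (y axis) for 859 receptor genes, coloured by the component that raised them. Genes at the upper right are above both components and genes at the lower left below both, 174 and 151 by sign, with 0 called in either corner. Genes higher after octanal spread up the y axis near an x of 0, and genes higher after cis-3-hexenol spread along the x axis.

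The receptors closest to exceeding both components were Olfr1383, Olfr322 and Olfr479. Olfr1383 had 74.9, 76.8 and 90.3 CPM after the mixture, 57.01, 38.2 and 76.9 after octanal, 1.74, 1.44 and 1.06 after cis-3-hexenol, and 1.74, 1.65 and 1.71 without odor. The mixture overlapped octanal by 1 library and stood far above the other groups. It lay 0.49 ± 0.20 above octanal on the log2 scale (unadjusted p = 0.0249 in the edgeR fit, adjusted p = 0.998), and its interaction was 0.74 ± 0.36 (adjusted p = 0.524). Olfr322 lay 0.58 ± 0.26 above octanal (unadjusted p = 0.0419 in the edgeR fit) and Olfr479 0.42 ± 0.20 (unadjusted p = 0.0495). Olfr322 had an interaction of -0.22, or 0.02 with libraries scaled to the median receptor gene, and Olfr479 had 0.68. Olfr666 and Olfr677 followed, at under 10 CPM in every library, with a larger unadjusted p of 0.0956 and 0.109. Olfr1383, Olfr322 and Olfr666 have near-identical copies.

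The receptors closest to falling below both were Olfr449, Olfr1416, Olfr1229, Olfr1415 and Olfr609. Olfr449 had 16.03, 14.6 and 17.9 CPM after the mixture, 19.8, 17.2 and 34.6 after octanal, 34.2, 28.8 and 21.4 after cis-3-hexenol, and 17.6, 14.7 and 19.7 without odor. The mixture overlapped no odor, lay under every cis-3-hexenol library and overlapped octanal by 1 library. Its difference was -0.56 ± 0.24 from octanal (unadjusted p = 0.0316 in the edgeR fit) and -0.80 ± 0.24 from cis-3-hexenol (adjusted p = 0.0375), and its interaction was -1.26 ± 0.34 (adjusted p = 0.194). Olfr1416, with 1.75, 1.20 and 2.05 CPM after the mixture, 3.10, 2.60 and 2.59 after octanal, 6.69, 5.09 and 5.22 after cis-3-hexenol, and 3.17, 1.54 and 2.62 without odor, had every mixture library below every library of both components, as did Olfr609. Its interaction was -1.93 ± 0.44 (edgeR adjusted p = 0.114). The interaction was -1.12 for Olfr1229, -1.62 for Olfr1415 and -2.69 for Olfr609, which stayed under 1 CPM after the mixture. Olfr1416 and Olfr1415 are near-identical copies of each other.

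Against octanal alone, 11 receptor genes were higher after the mixture and 0 lower, which is 1.28% of receptor genes, against 0.0715% of all genes called higher. At an unadjusted p under 0.05, 77 were higher and 39 lower, and DESeq2 called 16 higher and 1 lower. The 11 were Olfr1215, Olfr1226, Olfr467, Olfr1225, Olfr281, Olfr1214, Olfr1240, Olfr342, Olfr1246, Olfr1238 and Olfr357, all of them also called higher after cis-3-hexenol against no odor. The count higher was 7 without octanal replicate 2 or mixture replicate 1, 7 with 1 lower without octanal replicate 3, and 7 with libraries scaled to the median receptor gene. Against cis-3-hexenol, 116 receptor genes were higher after the mixture and 15 lower, where 7.86% of all genes were higher and 5.03% lower. The mixture profile was also set against the midpoint of its components, the mean of their log2 levels: 42 receptor genes were above it and 0 below, against 0.256% of all genes above it. Where the components differ, this midpoint lies below the mean of their CPM levels. A mixture at that CPM mean would therefore also lie above the midpoint, so the scale favours this direction. At an unadjusted p under 0.05 the counts were 121 above and 16 below, and DESeq2 called 65 above and 2 below. The count above the midpoint was 25 without cis-3-hexenol replicate 2, 24 without mixture replicate 1 and 25 without mixture replicate 2.

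Olfr281 was called different from both components, the only 1 of the 19568 genes (0.00511%), and was picked after its values were seen. It had 30.7, 29.3 and 31.2 CPM after the mixture, 5.56, 4.96 and 10.2 after octanal, 76.5, 38.8 and 43.6 after cis-3-hexenol, and 13.6, 11.04 and 11.9 without odor. The 4 groups did not overlap. Octanal lay 0.82 below no odor on the log2 scale (edgeR adjusted p = 0.0308) and cis-3-hexenol 2.12 above it, and the mixture lay 2.14 ± 0.27 above octanal (adjusted p = 0.00166) and 0.80 ± 0.25 below cis-3-hexenol (adjusted p = 0.0467). Its interaction was 0.02 ± 0.36 (edgeR adjusted p = 0.995), so the mixture was not told apart from the summed log2 changes. The sign of its interaction reversed in 7 of 18 alternatives. In CPM its mixture mean reached 0.637 of the linear sum.

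Summed over all receptor genes, these held 0.644%, 0.594% and 0.653% of counts after the mixture, 0.706%, 0.481% and 0.611% after octanal, 0.477%, 0.444% and 0.421% after cis-3-hexenol, and 0.225%, 0.269% and 0.235% without odor. The mixture share lay inside the octanal range and above every cis-3-hexenol library. The mean was 0.631% ± 0.0317 after the mixture and 0.599% ± 0.113 after octanal (SD, n = 3 each; exact permutation test, 2-sided, p = 0.8), and 0.447% ± 0.0283 after cis-3-hexenol (exact p = 0.1, the smallest that 3 against 3 allows). The linear sum of the component increases would have been 0.804%, so the mixture lay 0.173 percentage points below it, with a spread of 0.123 (square root of the summed squares of the 4 group SDs). The mixture minus octanal was 0.0312 percentage points and turned to -0.0279 without octanal replicate 2. With red blood cell, neutrophil and mitochondrial genes left out of the total, the mean share was 0.642% after the mixture, 0.608% after octanal, 0.466% after cis-3-hexenol and 0.267% without odor, and the mixture lay 0.165 percentage points below the linear sum. In CPM, the summed receptor genes reached 0.812 of the linear sum.

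Outside the receptors, 2 genes were called below additivity and 8 above. Both genes below are on a list of 19 effector genes that odor raises in sensory neurons, which was drawn up with results of these data known. Kcng1, a modifier subunit of voltage-gated potassium channels, had 99.2, 114 and 89.5 CPM after the mixture, 145, 63.5 and 77.3 after octanal, 47.2, 28.1 and 29.9 after cis-3-hexenol, and 6.64, 4.66 and 4.79 without odor. The mixture overlapped octanal and exceeded every cis-3-hexenol library. Its interaction was -2.61 ± 0.39 (edgeR adjusted p = 0.0118), lost without no-odor replicate 3 (adjusted p = 0.0751) and without mixture replicate 1 (adjusted p = 0.0544). In CPM the mixture reached 0.809 of the linear sum, at 101 ± 12.5 against 125 ± 44.7 CPM (SD, n = 3). Heg1, a transmembrane protein, averaged 103 CPM after the mixture, 97.0 after octanal, 46.8 after cis-3-hexenol and 17.6 without odor. Its interaction of -1.33 ± 0.24 was at the threshold (edgeR adjusted p = 0.0455), and 6 of 18 alternatives kept the call. Its mixture mean reached 0.813 of the linear sum. The call on Heg1 was lost with relative log expression factors (adjusted p = 0.0569) and without any 1 library except octanal replicates 2 and 3 (adjusted p of at most 0.147).

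**Figure D4:**
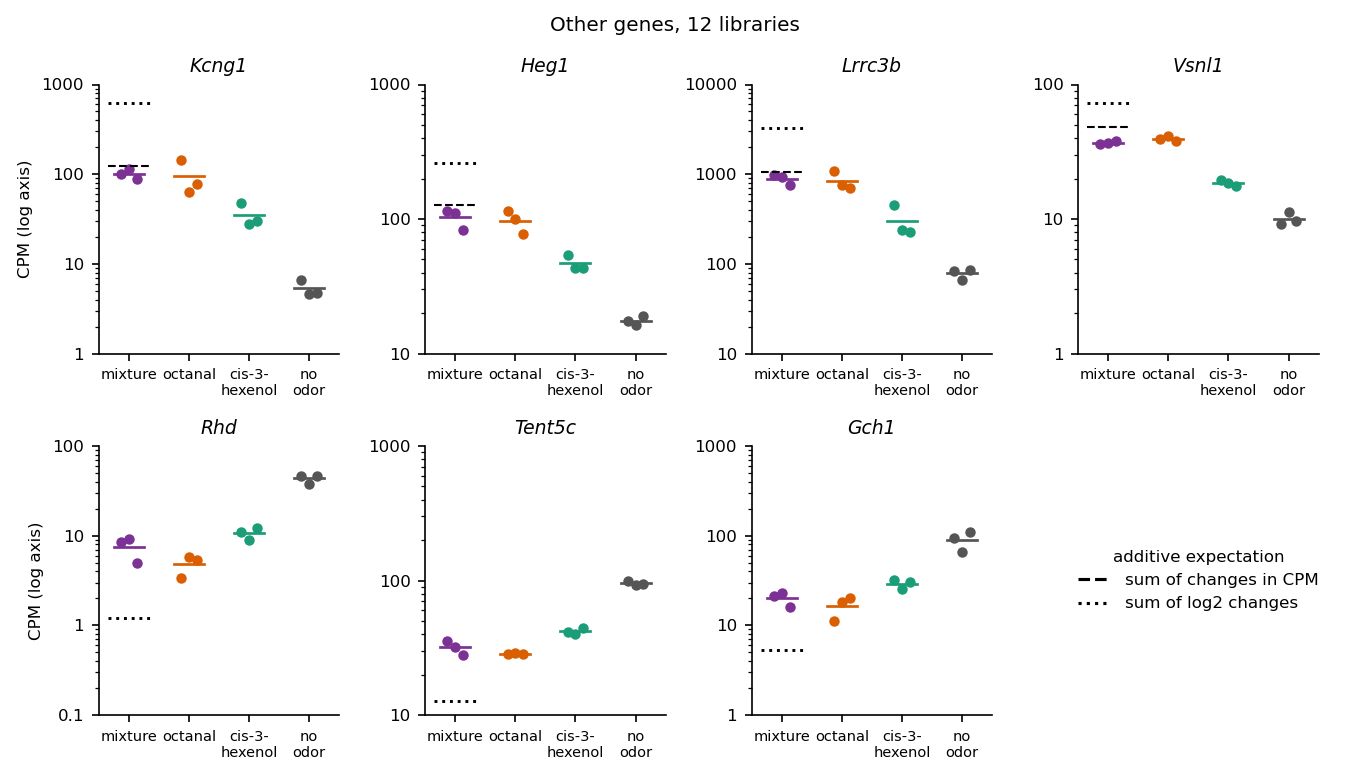
CPM on a log axis in the 12 libraries for Kcng1, Heg1, Lrrc3b and Vsnl1 (effector genes) and for Rhd, Tent5c and Gch1, with points for libraries and lines for group means (n = 3). Dashed and dotted lines over the mixture mark the linear and log2 additive expectations; the linear one is below 0 for Rhd, Tent5c and Gch1 and is not drawn. The mixture lies under the dotted line in the first 4 genes and over it in the last 3.

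The 19 effector genes all had an interaction below 0, with a median of -1.04 against -0.04 over all genes tested, and 2 of 19 were called by edgeR (14 below 0 at an unadjusted p under 0.05, where 5.57% of all genes were, and 8 called below by DESeq2). Against no odor, 16 of them were called higher after the mixture, 17 after octanal and 11 after cis-3-hexenol, and 0 lower, where 17.7%, 17.9% and 2.58% of all genes were called higher. The list was drawn up with results of these data known, which favours such calls and can favour interactions below 0. Its counts are therefore a description. The closest others were Lrrc3b, a leucine-rich repeat membrane protein, at -1.88 ± 0.35 (edgeR adjusted p = 0.0573) and Vsnl1, a neuronal calcium sensor, at -0.98 ± 0.19 (adjusted p = 0.0669). Lrrc3b had 981, 921 and 763 CPM after the mixture, 1077, 764 and 693 after octanal, 449, 236 and 224 after cis-3-hexenol, and 83.7, 65.8 and 85.0 without odor. Scg3, a secretory granule protein, had an interaction of -0.99 ± 0.20 and Gadl1, a decarboxylase, of -0.71 ± 0.20, neither called. In CPM the mixture reached a median of 0.767 of the linear sum over the 19 genes, from 0.504 to 0.990. It reached 0.830 for Lrrc3b and 0.933 for Gadl1. With libraries scaled to the median receptor gene, Heg1 lost its call (adjusted p = 0.182).

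The 20 genes of olfactory transduction were also all below 0, with a median of -0.65 and 0 called (10 below 0 at an unadjusted p under 0.05, and 2 called below by DESeq2). Adcy3, the adenylyl cyclase of the cascade, averaged 497 CPM after the mixture, 501 after octanal, 337 after cis-3-hexenol and 171 without odor, with an interaction of -0.996 ± 0.33 (edgeR adjusted p = 0.338). The 7 markers of mature sensory neurons had a median of -0.62 with 0 called by edgeR or DESeq2 (3 below 0 at an unadjusted p under 0.05), and were called higher in 7 of 7 after the mixture, 7 of 7 after octanal and 5 of 7 after cis-3-hexenol, against 17.7%, 17.9% and 2.58% of all genes. Immediate early genes, first transcribed after firing, had a median of -0.30 with 0 of 20 called by edgeR or DESeq2 (5 below 0 at an unadjusted p under 0.05). Nr4a1, a nuclear receptor of that class, averaged 290.5 CPM after the mixture, 378 after octanal, 104 after cis-3-hexenol and 26.8 without odor, with an interaction of -2.33 ± 0.64 (edgeR adjusted p = 0.201). Fosb had -2.66 ± 0.70 and Nr4a2 -2.13 ± 0.51, neither called. These were among the most negative of the list, in which 13 of 20 were below 0. Fos was at -0.37 and Egr1 at -0.28, and values ran up to 0.66 in Egr2. Among 22 axon sorting genes 0 were called by edgeR (5 below 0 at an unadjusted p under 0.05) and 3 below by DESeq2, with Pcdh10, an activity-dependent protocadherin, closest at -2.55 ± 0.49 (adjusted p = 0.0687).

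The 8 genes above additivity were all lower with each odor than without it, and the mixture fell by less than the sum of the component changes. Rhd, the Rh blood group antigen of red blood cells, had 8.43, 9.11 and 4.97 CPM after the mixture, 3.40, 5.73 and 5.40 after octanal, 11.1, 8.96 and 12.2 after cis-3-hexenol, and 46.1, 38.1 and 46.6 without odor. The mixture overlapped both components, and all lay far under no odor. Its interaction was 2.65 ± 0.34 (edgeR adjusted p = 0.00309). Tent5c, a poly(A) polymerase, averaged 31.9 CPM after the mixture, 28.6 after octanal, 42.1 after cis-3-hexenol and 95.4 without odor, with an interaction of 1.34 ± 0.18 (adjusted p = 0.00326). Both calls held in 18 of 18 alternatives.

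The others named were Pdzk1ip1 at 1.29 ± 0.19 (edgeR adjusted p = 0.0117, kept in 17 of 18 alternatives), Ube2l6, the conjugating enzyme of the ubiquitin-like protein ISG15, at 1.64 ± 0.25 (adjusted p = 0.0161, 14 of 18), Gch1, the entry enzyme of tetrahydrobiopterin synthesis, at 1.91 ± 0.31 (adjusted p = 0.0244, 11 of 18), and the membrane transporter gene Slc43a3 at 1.92 ± 0.32 (adjusted p = 0.0244, 10 of 18). The call on Pdzk1ip1 was lost without cis-3-hexenol replicate 2, and that on Ube2l6 without no-odor replicate 3, cis-3-hexenol replicate 1 or 2 or mixture replicate 2. That on Gch1 was lost without no-odor replicate 1 or 3, any cis-3-hexenol library or mixture replicate 1 or 2, and that on Slc43a3 without no-odor replicate 1 or 3, octanal replicate 1, any cis-3-hexenol library or mixture replicate 2 or 3. The adjusted p was at most 0.092 in these. The remaining 2, Ctse at 2.51 and Tspo at 1.18, were named after their values were seen because they complete the 8. The red blood cell markers moved the same way: 10 of 10 had an interaction above 0, with a median of 1.90, and 1, Rhd, was called by edgeR (9 above 0 at an unadjusted p under 0.05, where 4.12% of all genes were, and 4 called above by DESeq2). All 10 were called lower after the mixture and after octanal, and 9 after cis-3-hexenol, where 14.8%, 14.4% and 3.16% of all genes were lower. Medians were also above 0 for markers of neutrophils (1.04), macrophages (0.84), and bone and osteoclasts (0.82) and for interferon-stimulated genes (0.65), with 0 called in each by edgeR. At an unadjusted p under 0.05 the genes above 0 were 5 of 8 neutrophil, 4 of 6 macrophage, 5 of 8 bone and osteoclast and 8 of 20 interferon-stimulated genes, and DESeq2 called 2, 1, 2 and 2 of them. Medians of cytosolic ribosomal protein genes and mitochondrially encoded genes were 0.05 and 0.09.

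**Figure D5:**
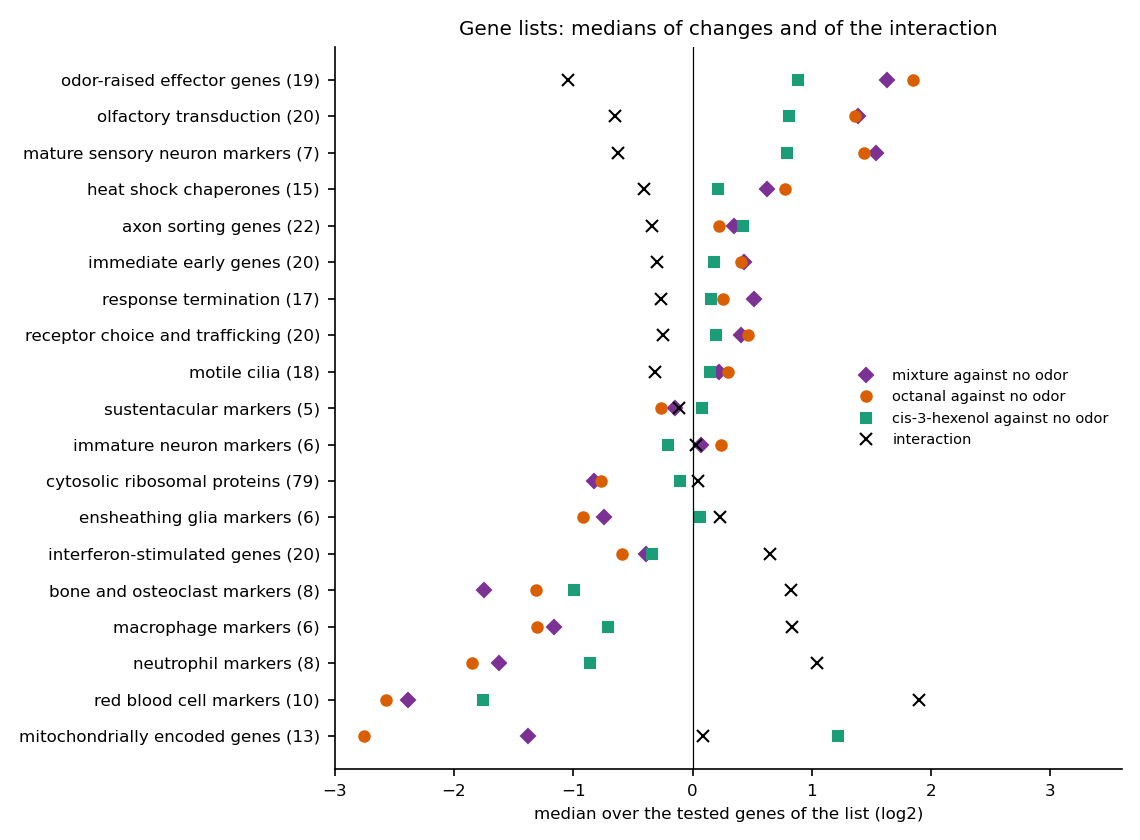
Median log2 change against no odor after the mixture, octanal and cis-3-hexenol, and median interaction, for 19 gene lists, with the number of genes tested in parentheses. Lists whose medians lie above 0 have interactions under 0 or near it, down to -1.04 in the effector genes, and immune, bone and blood marker lists, with medians below 0, have interactions over 0, up to 1.90 in the red blood cell markers. Mitochondrially encoded genes have medians below 0 after the mixture and octanal and above 0 after cis-3-hexenol.

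The interaction was last compared with the same interaction in the acetophenone-decanal and floral-mint sets, each with its own controls and in its own batch. Against the acetophenone-decanal set 0 genes differed (edgeR, difference of the interactions; 42 receptor genes lower and 38 higher at an unadjusted p under 0.05). The closest below were Olfr398, at -2.84 here and -0.64 there, and Olfr124, at -2.83 here and 0.03 there (adjusted p = 0.0531 for both), followed by Olfr1294 at -1.56 here and 1.36 there (adjusted p = 0.156). The closest above were Olfr1283, Olfr143 and Olfr243, of which the last 2 had under 2 CPM in every library here. Receptor calls of this difference numbered 2 with relative log expression size factors and 4 in a single fit of all 36 libraries, all lower here. Against the floral-mint set 1 receptor gene was lower here and 6 higher, where 0.0049% of all genes were lower and 0.0783% higher. At an unadjusted p under 0.05 in the edgeR fit, the split ran the other way, with 87 of 910 receptor genes lower here and 39 higher. Of all 20427 genes, 1184 were lower and 1119 higher. The median receptor interaction was -0.26 here and 0.10 in the floral-mint set. Olfr124 was the lower 1, with an interaction of -2.85 here and -0.11 in the floral-mint set (difference -2.74 ± 0.39, adjusted p = 0.000939). The differences above were led by Olfr1260, Olfr169, Olfr48 and Olfr332, whose interactions lay within -0.40 to 0.13 here and within -4.72 to -3.37 in the floral-mint set.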

How the data were processed

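The authors deposited expected counts per gene (estimated counts, of which 11.1% to 13.6% per library of the octanal-hexenol set were fractional), and these were rounded to whole numbers. The submitters' processing notes list the build GRCm39 together with Salmon 1.10.1, STAR 2.7.10b and R 4.4.2; which step gave the counts, and from which annotation, is not given in the sources used here. Gene symbols came from an annotation table that named 52029 of 57010 gene IDs. Genes were kept with edgeR 4.0.16 (R 4.3.3; minimum count 10, minimum total 15), scaled by trimmed mean of M values, and tested with the quasi-likelihood test in 1 fit of the 12 libraries, with Benjamini-Hochberg adjustment over 19568 genes and a threshold of 0.05. CPM values use the same scaling. DESeq2 1.42.0, relative log expression factors, scaling to the median receptor gene, no filter, a replicate block, a fit of 36 libraries and leaving out each library were alternatives. The fitting code was tested on simulated data. Near-identical copies share at least 95% identity over 200 bases or more.

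Named genes were up to 10 receptor genes and 6 other genes called in each direction by smallest p, 5 receptor genes above and 5 below both components, 3 receptor genes in each direction of each difference between sets, and a list of single genes. The genes and lists were chosen with earlier results of these data known. Expected counts divide reads that fit several genes, which can blur near-identical receptors. Beside those said to have copies, Olfr169, Olfr243, Olfr287, Olfr467, Olfr559, Olfr819, Olfr1238, Olfr1283, Olfr1380 and Olfr1506 also have near-identical copies. Replicate numbers come from the titles.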

Additional observations from a re-analysis of the deposited data

Results flagged for a closer look

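The interaction differed between the octanal-hexenol set and the floral-mint set for 11 of the genes named (edgeR test of the difference, octanal-hexenol minus floral-mint, log2 scale). Each set is its own batch with its own no-odor mice, so batch and odor pair cannot be told apart here. Among receptors, Olfr124 differed by -2.74, Olfr1260 by 3.501, Olfr169 by 3.33, Olfr48 by 4.32 and Olfr332 by 3.27. For Olfr124 the departure lay in the octanal-hexenol set, at -2.85 against -0.11 in the floral-mint set. For Olfr1260, Olfr169, Olfr48 and Olfr332 the octanal-hexenol interaction lay within -0.40 to 0.13 and the floral-mint one was -3.37, -3.65, -4.72 and -3.43. Among other genes, Rhd differed by 3.12, Gch1 by 2.51, Ube2l6 by 2.00, Slc43a3 by 1.92, Pdzk1ip1 by 1.55 and Tent5c by 1.403, each with an interaction above 0 in the octanal-hexenol set and below 0 in the floral-mint set. Red blood cell markers differed between odor and no-odor libraries of the octanal-hexenol set, and their part in the differences of these 6 genes was not tested.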

How the results depend on the processing

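The number of genes called for the interaction depended on the setting, while no alternative turned the 7 called receptors above 0. Over all genes the count was 17 (9 below and 8 above), and 449 with no filter on low counts (207 below, 242 above), 29 with scaling to the median receptor gene (12 and 17), 48 with the replicate block (35 and 13), 317 in the fit of 36 libraries (233 and 84), 217 with DESeq2 (114 and 103), and 7 to 300 leaving out 1 library. The highest, 300, was without octanal replicate 2 (113 and 187). Without octanal replicate 3 it was 66 (44 and 22). Over receptor genes it was 7, and 59 with no filter, 28 with 36 libraries, 34 with DESeq2, 10 with the replicate block and 4 to 24 leaving out 1 library. The 7 were among the calls of each of these that used all 12 libraries.

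The count of receptor genes above both components was 1 with no filter, as was that below both. Over all genes, 23 were above and 23 below both with no filter, and 1 was below both with the replicate block and with 36 libraries. Receptor genes that differed between mixture and octanal numbered 11, and 41 with no filter (27 higher, 14 lower), 7 with receptor scaling, 17 with DESeq2 (16 and 1), 11 with the replicate block and 7 to 13 leaving out 1 library. Against the midpoint the count was 42, and 112 with no filter, 67 with DESeq2, 43 with the block and 24 to 53 leaving out 1 library. Differences from the acetophenone-decanal set were 0, and 2 (receptors) and 2 (all genes) with relative log expression factors, and 4 and 5 with 36 libraries. Differences from the floral-mint set numbered 17 over all genes, and 11 with 36 libraries. The cause was not tested.

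Of 887 alternative values of 56 named ones, 762 kept direction and side of the threshold, 57 lost and 51 gained a call, and 17 reversed. With receptor scaling Olfr322 became 0.023, Olfr332 0.10, Olfr1215 0.027 and Olfr1226 0.046, and Olfr281 became -0.0021 with 36 libraries. Leaving out 1 library gave -0.034 to 1.90 for Olfr677 (lowest without mixture 1), -0.048 to 0.34 for Olfr1260 (mixture 3), -0.10 to 0.88 for Olfr2 (no odor 1), -0.21 to 0.48 for Olfr1380 (no odor 3), -0.37 to 0.13 for Olfr1215 and -0.39 to 0.16 for Olfr1226 (both highest without cis-3-hexenol 1), and -0.17 to 0.41 for Olfr281 (below 0 in 6 of 12).

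Over 18 pairs of libraries with the same number, the correlation of deviations from group means ran from -0.081 to 0.187. Of these, 3 were over 0.1, and 5 of 12 libraries correlated best with their own number. Pairs of libraries numbered 2 were all positive, from 0.013 to 0.110. Gene IDs without a symbol held their largest share of counts in library 2 of each group, such as 0.650% without odor. The main fit did not use the number as a pairing, and these values do not settle whether it is one. Low-count receptors limit the test, since several had 0 counts in no-odor libraries.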
